A study of Homo sapiens with 4 samples.

Results

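The RUNX genes, CBFB and the ETO genes were examined together, because the t(8;21) rearrangement of acute myeloid leukemia (AML) joins RUNX1 to the ETO gene RUNX1T1. The members were the rows for RUNX1, RUNX2, RUNX3, CBFB, RUNX1T1, CBFA2T2 and CBFA2T3, and all 7 were present among the 18567 genes of the deposited table. RNA of the AML cell line labelled Kasumi-1 was sequenced in 2 control samples (NC) and in 2 samples (sh-ANP32B) in which a short hairpin RNA lowered ANP32B, a histone chaperone. According to the labels the NC samples had no hairpin and no treatment, but a control hairpin is described in the study's methods, and what the NC cells carried was not settled. Which hairpin against ANP32B each knockdown sample carried is not given. The values are TPM, a transcript abundance scaled by length and by the total of the sample. Read depth cannot be recovered from TPM and is unknown. The samples are bulk RNA, in which fewer cells of a kind and less RNA per cell cannot be told apart.

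RUNX proteins are transcription factors that bind DNA through the Runt domain. CBFB encodes their shared partner, which binds no DNA itself and stabilizes RUNX on its sites. RUNX1 is required for the emergence of blood stem cells and for myeloid and megakaryocytic maturation, RUNX2 is best known as the master factor of bone formation, and RUNX3 acts in lymphocytes and neurons. The ETO proteins, encoded by RUNX1T1, CBFA2T2 and CBFA2T3, bind no DNA by themselves and recruit NCOR corepressors and histone deacetylases. In t(8;21) leukemia the fusion protein keeps the Runt domain of RUNX1 and nearly all of RUNX1T1. A gene-level table assigns reads of a fusion transcript to whichever gene they map to, so the rows of RUNX1 and RUNX1T1 cannot separate normal from fused transcripts.

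The cell line label was checked against the data. The Kasumi-1 line is known to carry t(8;21), to display KIT and CD34 and to contain MPO, and t(8;21) leukemia is known for low expression of the HOXA cluster. KIT, a receptor of blood progenitors, was at 1.55 and 2.31 TPM in the NC samples against 3.41 and 2.76 TPM after knockdown, between percentiles 20.8 and 29.9 of the genes in each sample. CD34 and MPO had no row and were not analysed here. These 3 genes belong to a list of 8 myeloblast markers, of which 6 had a row. The others with a row were not low throughout. Over the 4 samples PTPRC was at 113 to 203 TPM, CD33 at 58.5 to 70.1 and ANPEP at 81.7 to 134. SPI1 was at 241 to 364 TPM and CD38 at 4.15 to 8.26 TPM. HOXA9, a homeobox factor of blood progenitors, was at 156 and 150 TPM without and 169 and 194 TPM with knockdown. Its partner MEIS1 was at 50.6 and 49.9 TPM in NC samples compared with 64.3 and 61.0 TPM in sh-ANP32B. Of the 11 HOXA genes, all had a row and 8 were above 10 TPM in every sample. POU4F1, a factor known to be high in t(8;21) leukemia, was at 16.2 and 16.1 TPM in the NC samples against 16.2 and 22.9 TPM after knockdown. The low KIT and the high HOXA genes and MEIS1 go against the label in all 4 samples, while the levels of POU4F1 and RUNX1T1 do not. The HOXA genes and MEIS1 were added to this check after their values were seen. The cells are therefore named only by their label, and whether they carried the fusion could not be told from these values.

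**Figure D1:**
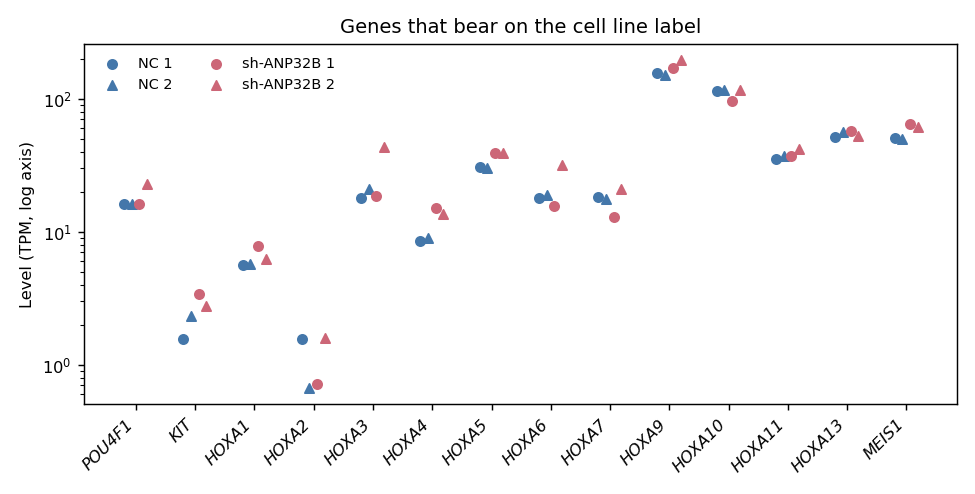
Levels in TPM, on a log axis, of genes that bear on the cell line label, with 1 point per sample (blue NC, red sh-ANP32B, circles replicate 1, triangles replicate 2). KIT lies between 1.55 and 3.41 TPM, whereas HOXA9 lies between 150 and 194 TPM in the same samples.

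ANP32B, the targeted gene, was lower in both samples labelled as knockdown, with 384 and 392 TPM without and 51.8 and 41.2 TPM with knockdown. Its mean in sh-ANP32B was 11.99% of that in NC (log2 difference -3.04, SE 0.150, limma adjusted p 0.00516). Of 30 markers of T cells, B cells, erythroid cells, megakaryocytes, epithelium and fibroblasts, 4 had a row, and their summed level was between 5.53 and 7.41 TPM in NC and between 15.3 and 16.8 TPM in sh-ANP32B. Most of that sum in sh-ANP32B was CD2, a surface protein of T cells, at 1.65 and 1.57 TPM in NC samples compared with 9.48 and 9.25 TPM in sh-ANP32B (log2 difference 1.99, SE 0.235, limma adjusted p 0.0261). CD3D, CD3E, CD3G and CD8A had no row. The part of this shift in the results was not tested. Mitochondrial genes took 12.9% and 13.1% of the TPM in NC and 11.4% and 8.43% in sh-ANP32B, lowest in replicate 2, and the part of this in the results was not tested beyond leaving these genes out. The replicates of sh-ANP32B also differed along GC content. The Spearman rho between GC content and the log2 difference of replicate 1 minus replicate 2 was -0.577 in sh-ANP32B and 0.206 in NC across 15427 genes, which are not independent replicates. Nothing in the labels says that the samples came from separate cultures, so the p-values measure only the spread between these samples, which may be technical.

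Sequences of the start regions were taken first, because RUNX genes are known to carry RUNX sites in their own distal promoters. The core letters TGTGGT, the best known RUNX site, and TGCGGT were searched on both strands in RefSeq windows (GRCh38.p14, the coordinates of hg38) that run from 250 bases before to 50 bases after each gene start. The 5 members found had 7 windows, and CBFB and RUNX1T1 had no entry. TGTGGT was found in 13.1% of all 34943 windows and TGCGGT in 7.28%. The distal windows of RUNX2 and RUNX3 each held a pair of TGTGGT cores, read here as the reverse complement ACCACA, with starts 8 bases apart. Pairs with starts at most 10 bases apart occurred in 28 of the 34943 windows, or 0.0801%. The stretches are shown 5′ to 3′ on the strand of the gene, with the TGTGGT cores, as ACCACA, in capitals. TGCGGT is left in small letters.
RUNX3 distal pair: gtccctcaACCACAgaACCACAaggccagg
RUNX2 distal pair: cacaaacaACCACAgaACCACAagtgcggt
RUNX2 single core, nearer: gtgaggtcacaaACCACAtgattctgcctc
RUNX2 single core, farther: aggaaaggccttACCACAagccttttgtga
The RUNX3 stretch lies at chr1:24965120-24965149 on the minus strand, with the cores starting at positions -131 and -123 from the RefSeq start, and all but 2 of its bases lie outside the GENCODE v44 gene. The RUNX2 pair lies at chr6:45328338-45328367 on the plus strand, at positions 17 and 25, inside the annotated untranslated part of the first exon. The single RUNX2 cores lie at chr6:45328231-45328260, also in that part, and at chr6:45328127-45328156, which ends at the base before the GENCODE gene. The RUNX2 distal window also held 1 TGCGGT, whose start lies 8 bases after the start of the second core of the pair and which overlaps neither core. The windows of RUNX1, CBFA2T2 and CBFA2T3 and the proximal windows of RUNX2 and RUNX3 held neither core. The single window of RUNX1 has its start at chr21:34888699, well inside the annotated gene. The single windows of CBFA2T2 and CBFA2T3 also start inside their genes. More distal starts of RUNX1, CBFA2T2 and CBFA2T3 were therefore not searched, and whether they hold such cores is not known here. A match of letters is a description, and no factor binding was measured.

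The members differed widely in level. In NC, the order of the mean TPM was RUNX1, RUNX3, CBFB, CBFA2T2, RUNX1T1, RUNX2 and CBFA2T3, from 122 to 10.96 TPM. The values of RUNX3 and CBFB overlapped in NC, as did those of RUNX1T1 and RUNX2, whereas all other neighbours in that order were separate. In sh-ANP32B the order of the means was the same, with 136 TPM for RUNX1 and 15.1 TPM for CBFA2T3, and CBFA2T2 and RUNX1T1 were the only neighbours whose values overlapped. All 7 members passed the filter of at least 1 TPM in at least 2 samples, and the lowest value of any member in any sample was 10.8 TPM.

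**Figure D2:**
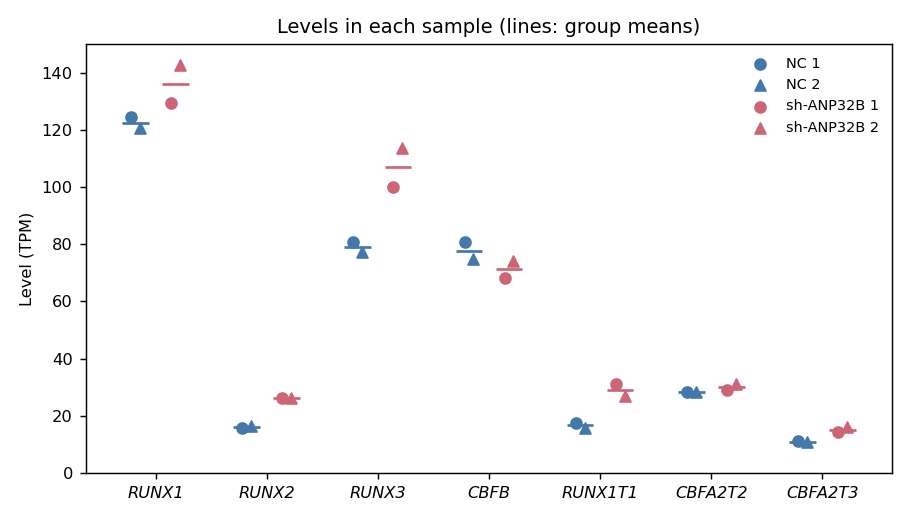
Level of each member in TPM in every sample, with NC in blue, sh-ANP32B in red, circles for replicate 1, triangles for replicate 2 and lines for the group means. The 2 sh-ANP32B points lie above both NC points for 6 genes and below them for CBFB.

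To find out whether these genes moved with knockdown of ANP32B, the groups were compared on the log2(TPM + 1) scale with limma, fitted over all 16817 genes that passed the filter. RUNX1T1 and RUNX2 had the largest differences of the 7, 1.75-fold and 1.62-fold higher mean TPM in sh-ANP32B, while RUNX1, CBFA2T2 and CBFB had the smallest. No member reached an adjusted p under 0.05, against 3.32% of all genes, in this limma fit. At an unadjusted p under 0.05 there were 3 members, RUNX1T1, RUNX2 and RUNX3, all higher, where 15% of all genes were higher at that level and 23.8% passed it in either direction. The criterion of the study was a p under 0.05 and a log2 difference over 0.5 in either direction, from DESeq2. Whether that p was adjusted is not stated in its methods. With these thresholds set on the unadjusted p of this limma fit instead, RUNX1T1 and RUNX2 passed, both higher. So did 12.1% of all genes in that direction. Both sh-ANP32B values lay above both NC values in 6 members, as in 33.2% of all genes, and below them in CBFB, as in 21.4%. Under GC correction, the limma adjusted p was under 0.05 for 2 members, RUNX2 and RUNX1T1, and for 16.4% of the 15427 genes with a GC value. Without sh-ANP32B replicate 1 or 2 it was so for 3 members, RUNX2, RUNX3 and RUNX1T1, and for 24.3% or 20.7% of all genes. The median log2 difference was 0.43 over the 7 members and 0.08 over all genes tested. Without mitochondrial genes, the median of all genes was 0.04 and the difference of RUNX1 0.10.

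RUNX1 (ENSG00000159216, hg38 chr21:34787801-36004667, minus strand), the main RUNX factor of blood stem cells, was the most abundant member. Its level was 124 and 121 TPM in the NC samples against 129 and 143 TPM after knockdown. The means were 122 ± 2.76 and 136 ± 9.34 TPM (SD, n = 2). The log2 difference was 0.15 (SE 0.128, 95% interval -0.16 to 0.45, limma adjusted p 0.530). The groups did not overlap, but the gap between them was smaller than that between the sh-ANP32B replicates.

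RUNX2 (ENSG00000124813, chr6:45328157-45664349, plus strand), the bone factor, was the least abundant RUNX gene. Its level was 15.9 and 16.5 TPM without and 26.2 and 26.1 TPM with knockdown. The groups were far apart and the replicates of each were close together. The means were 16.2 ± 0.422 and 26.2 ± 0.126 TPM (SD, n = 2). The log2 difference was 0.66 (SE 0.159, 95% interval 0.28 to 1.04), with a limma adjusted p of 0.0735. The adjusted p was between 0.0152 and 0.488 in the 15 alternative fits, and after correction for GC content it was 0.0176 at a log2 difference of 0.63.

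RUNX3 (ENSG00000020633, chr1:24899511-24965121, minus strand), the RUNX factor of lymphocytes, was at 80.8 and 77.2 TPM in NC samples compared with 100.1 and 114 TPM in sh-ANP32B. Every sh-ANP32B value was above every NC value, with the higher in replicate 2. The means were 79.0 ± 2.52 and 107 ± 9.59 TPM (SD, n = 2). The log2 difference was 0.43 (SE 0.136, 95% interval 0.10 to 0.75, limma adjusted p 0.125). Its longest transcript has a GC content of 57.2%, and after GC correction the difference was 0.25 with a limma adjusted p of 0.0746, in a range of 0.00628 to 0.725 over the alternatives. The highest of these came without NC replicate 2 (log2 difference 0.40) and the lowest without sh-ANP32B replicate 1 (0.52).

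CBFB (ENSG00000067955, chr16:67028984-67101058, plus strand), the partner of all RUNX proteins, was the only member with a lower mean in sh-ANP32B. It had 80.6 and 74.7 TPM in the NC samples against 68.2 and 74.2 TPM after knockdown. NC replicate 2 and sh-ANP32B replicate 2 were nearly equal. The means were 77.7 ± 4.23 and 71.2 ± 4.23 TPM (SD, n = 2), about as far apart as the replicates of either group. The log2 difference was -0.12 (SE 0.136, 95% interval -0.45 to 0.20, limma adjusted p 0.638).

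RUNX1T1 (ENSG00000079102, chr8:91954972-92103286, minus strand), the founding ETO gene and the fusion partner in t(8;21), had the largest difference of the members. Its level was 17.6 and 15.6 TPM without and 31.2 and 26.8 TPM with knockdown. All sh-ANP32B values exceeded the NC values by more than the replicates differed within either group. The means were 16.6 ± 1.44 and 29.0 ± 3.12 TPM (SD, n = 2). The log2 difference was 0.77 (SE 0.173, 95% interval 0.36 to 1.18), with a limma adjusted p of 0.0632. Over the 15 alternatives the adjusted p was between 0.00681 and 0.448, and it was 0.0150 after GC correction at a log2 difference of 0.74.

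CBFA2T2 (ENSG00000078699, chr20:33490075-33650036, plus strand) and CBFA2T3 (ENSG00000129993, chr16:88874858-88977207, minus strand) are the ETO genes outside the t(8;21) fusion. CBFA2T2 had 28.1 and 28.5 TPM in NC samples compared with 29.1 and 31.2 TPM in sh-ANP32B. The means were 28.3 ± 0.244 and 30.2 ± 1.52 TPM (SD, n = 2), with separate but near values. Its log2 difference was 0.09 (SE 0.150, 95% interval -0.27 to 0.45, limma adjusted p 0.776), close to the median of all genes. CBFA2T3, a corepressor of erythroid and megakaryocytic factors, had 11.1 and 10.8 TPM in the NC samples against 14.2 and 16.0 TPM after knockdown. The means were 10.96 ± 0.155 and 15.1 ± 1.28 TPM (SD, n = 2), and the groups did not overlap. Its log2 difference was 0.43 (SE 0.182, 95% interval -0.01 to 0.86, limma adjusted p 0.216). CBFA2T3 has the highest GC content of the members, 60.6%, and the difference was 0.21 after GC correction (limma adjusted p 0.327).

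**Figure D3:**
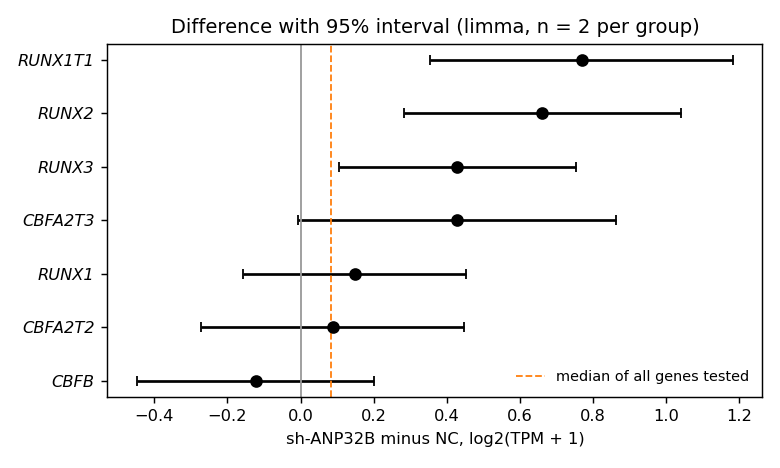
Log2(TPM + 1) difference of sh-ANP32B minus NC for each member (points) with the 95% interval of the limma fit (bars, 2 samples per group), and the median of all genes tested (dashed line). The intervals of RUNX1T1, RUNX2 and RUNX3 lie above 0, and those of CBFA2T3, RUNX1, CBFA2T2 and CBFB include it.

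Ratios between members within a sample do not depend on the scaling between samples and were compared next. They were not corrected for GC content, which ran from 40.6% in CBFB to 60.6% in CBFA2T3. The part of GC content in these ratios was not tested. The ratios are given without a test, since 2 samples per group are too few for an exact permutation test to fall under 0.05. RUNX1 made up 56.3% and 56.3% of the summed TPM of the 3 RUNX genes in NC and 50.6% and 50.5% in sh-ANP32B. The replicates were nearly equal, and the group means were 5.71 percentage points apart. RUNX2 made up 7.18% and 7.69% in NC and 10.3% and 9.23% in sh-ANP32B, and RUNX3 made up 36.5% and 36.1% in NC and 39.1% and 40.3% in sh-ANP32B. The summed RUNX level was 221 and 214 TPM without and 256 and 282 TPM with knockdown, while the single partner gene did not follow it upward. The level of CBFB was 36.5% and 34.9% of the RUNX sum in NC and 26.7% and 26.3% in sh-ANP32B, with separate groups.

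Within the ETO family, the share of RUNX1T1 was 31.0% and 28.4% in NC and 41.9% and 36.2% in sh-ANP32B. The share of CBFA2T2 was 49.5% and 51.9% in NC and 39.0% and 42.2% in sh-ANP32B, so CBFA2T2 led clearly in NC and was close to RUNX1T1 in sh-ANP32B. The share of CBFA2T3 was between 19.1% and 21.6% in all 4 samples, and its groups overlapped. Relative to RUNX1, the other gene of the fusion, the level of RUNX1T1 was 14.2% and 12.9% in NC and 24.1% and 18.8% in sh-ANP32B. These groups were separate, although the sh-ANP32B replicates were 5.32 percentage points apart.

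**Figure D4:**
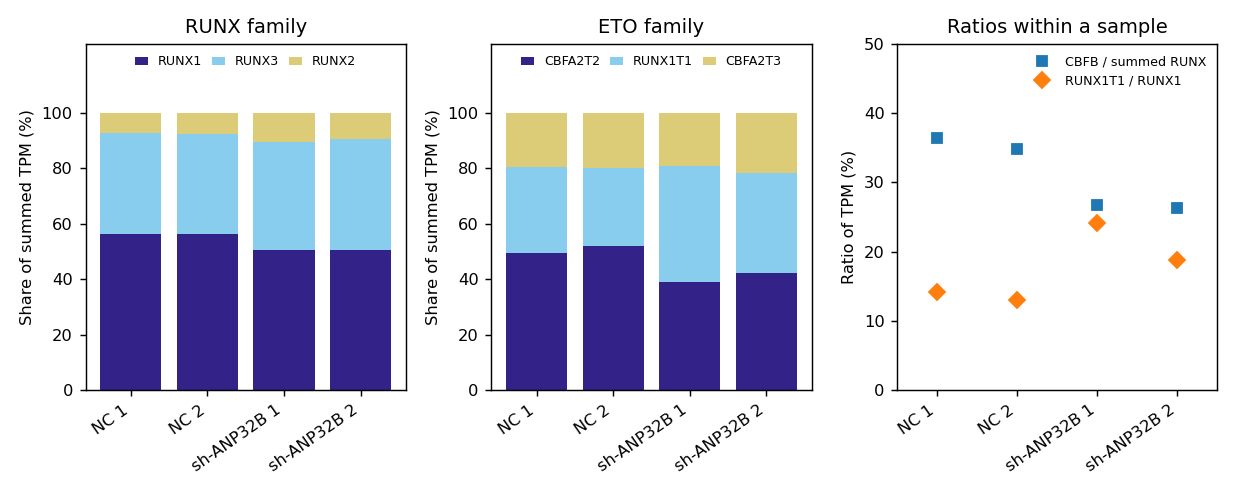
Share of each gene in the summed TPM of the RUNX family (left) and the ETO family (middle), as bars for each sample, and the ratios of CBFB to the RUNX sum and of RUNX1T1 to RUNX1 in percent (right, 1 point per sample). The RUNX1 share is 56.3% in both NC samples and 50.6% and 50.5% in sh-ANP32B.

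Genes that share the loci of the members were listed, because the library kit named in the labels does not mark strand and reads of overlapping genes could then be assigned to either. No gene overlapping RUNX1, CBFB, RUNX1T1 or CBFA2T2 had a row. SUPT3H, which encodes a subunit of the SAGA coactivator, overlaps the 5′ part of RUNX2 on the opposite strand and had 8.75 and 5.29 TPM in NC samples compared with 9.34 and 8.30 TPM in sh-ANP32B, with overlapping groups. ENSG00000271857, a noncoding gene on the opposite strand of chr6 from 45421079 to 45422005, had 1.84 and 1.82 TPM in the NC samples against 3.18 and 3.34 TPM after knockdown. Its log2 difference was 0.59 (SE 0.268, limma adjusted p 0.243), so this low gene and RUNX2 lay on the same side. RUNX3-AS1 was between 0.784 and 1.34 TPM, MIR6731 was listed at 0 in NC replicate 1 and reached 4.35 TPM in sh-ANP32B replicate 1, and ENSG00000259881 inside CBFA2T3 was between 0.284 and 1.73 TPM, all with overlapping groups. Apart from SUPT3H, each of these was far below its member, and the values of such pairs are uncertain by the reads that they share.

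The pattern over the 4 samples was also compared with that of all tested genes, as the root mean square distance of log2(TPM + 1) after subtraction of the NC mean. The nearest to RUNX1T1 were the noncoding genes ENSG00000262089, TRPM2-AS and ENSG00000238035, at distances of 0.015, 0.016 and 0.018. Within a distance of 0.1 there were 122 genes, or 0.73% of those tested. The nearest to RUNX1 were LINC02976, CELSR2 and IL6R, at distances of 0.0072, 0.011 and 0.012, with 992 genes or 5.90% within 0.1. With 4 samples such closeness is common and is a description only.

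The partners and known target genes of RUNX1 and of the fusion were then examined in 6 lists. Together the lists hold 71 genes, of which 60 were tested, and 3 of these had an adjusted p under 0.05, or 5% against 3.32% of all genes. LMO2, a bridging protein of the stem cell factor complex that works with RUNX1, rose with knockdown of ANP32B. It had 85.8 and 89.5 TPM without and 146 and 163 TPM with knockdown (log2 difference 0.81, SE 0.131, limma adjusted p 0.0401). CDKN1A, which encodes the cell cycle inhibitor p21, rose from 15.4 and 18.3 TPM to 30.8 and 41.5 TPM (log2 difference 1.05, SE 0.202, limma adjusted p 0.0482). MS4A3, a membrane protein of granulocyte progenitors, fell from 129 and 123 TPM to 66.5 and 51.1 TPM (log2 difference -1.10, SE 0.164, limma adjusted p 0.0354). The call of CDKN1A was lost in 7 of 15 alternatives (limma adjusted p 0.00106 to 0.168), that of LMO2 in 3 (0.000544 to 0.239) and that of MS4A3 in 2 (7.55e-05 to 0.115), in each case without NC replicate 1, at 0.168, 0.239 and 0.0541. LMO2 also lost it without NC replicate 2 (limma adjusted p 0.191), and CDKN1A under each of 4 other scalings between samples, at 0.0501 to 0.0583.

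Among the cofactors of RUNX1, 0 of 11 tested genes had an adjusted p under 0.05 in limma and 4 an unadjusted p under 0.05, 1 higher and 3 lower, where 23.8% of all genes passed the latter in either direction, with a median log2 difference of 0.00. The acetyltransferases EP300 and CREBBP, which RUNX1 recruits, had log2 differences of 0.26 and 0.21 (limma adjusted p 0.330 and 0.459). PRMT1, which methylates RUNX1, had 213 and 201 TPM in NC samples compared with 135 and 158 TPM in sh-ANP32B, and a log2 difference of -0.50 (limma adjusted p 0.0935). Of the 11 genes of the ETO corepressor complex, none had an adjusted p under 0.05 in limma and 3 an unadjusted p under 0.05, all higher, against 15% of all genes in that direction and 23.8% in either. The median of the list was 0.05. HDAC1, HDAC3 and NCOR1, the core of what ETO proteins recruit, had log2 differences of -0.03, 0.05 and 0.13 (limma adjusted p 0.921, 0.849 and 0.639). SIN3B, a scaffold of deacetylase complexes, had 53.5 and 56.8 TPM in the NC samples against 83.7 and 95.1 TPM after knockdown, with a log2 difference of 0.68 (limma adjusted p 0.0544).

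The list named DNA-binding partners of RUNX1 and of the fusion also holds LMO2, which bridges other proteins and does not itself bind DNA. Of the 11 tested genes of this list, only LMO2 had a limma adjusted p under 0.05. It was higher, and 3.32% of all genes passed that level in either direction. At an unadjusted p under 0.05 there were 3 genes of the list, all higher, where 15% of all genes were higher and 23.8% passed in either direction. The list median was 0.05. SPI1, which encodes the myeloid factor PU.1, had a log2 difference of 0.43 (limma adjusted p 0.131). Of the 12 genes known to be repressed by the fusion, 1 had a limma adjusted p under 0.05, MS4A3, against 3.32% of all genes. MS4A3 was lower. At an unadjusted p under 0.05, 2 genes of the list were higher and 1 lower, against 23.8% of all genes in either direction. In the list, 9 differences were positive and 3 negative, and the median was 0.14. ITGAM, the integrin chain CD11b of maturing myeloid cells, had 10.4 and 11.7 TPM without and 19.7 and 25.8 TPM with knockdown, with a log2 difference of 0.97 (limma adjusted p 0.0551). Of the 9 tested genes known to be high with the fusion, 1 had a limma adjusted p under 0.05, CDKN1A, which was higher. At an unadjusted p under 0.05, 1 gene of the list was higher and 3 lower, against 23.8% of all genes in either direction. The median was -0.13. TERT, the catalytic subunit of telomerase, had 10.02 and 8.27 TPM in NC samples compared with 3.21 and 4.13 TPM in sh-ANP32B, and a log2 difference of -1.12 (limma adjusted p 0.0578). Of the 16 direct targets of RUNX1 in blood cells 9 were tested and 0 had an adjusted p under 0.05 in limma, and 6 had an unadjusted p under 0.05, 4 higher and 2 lower, against 23.8% of all genes in either direction. The median of the list, which was not split by whether RUNX1 raises or lowers a gene, was 0.19. ELANE, the neutrophil elastase gene, had 316 and 292 TPM in the NC samples against 433 and 505 TPM after knockdown, with a log2 difference of 0.62 (limma adjusted p 0.0586).

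**Figure D5:**
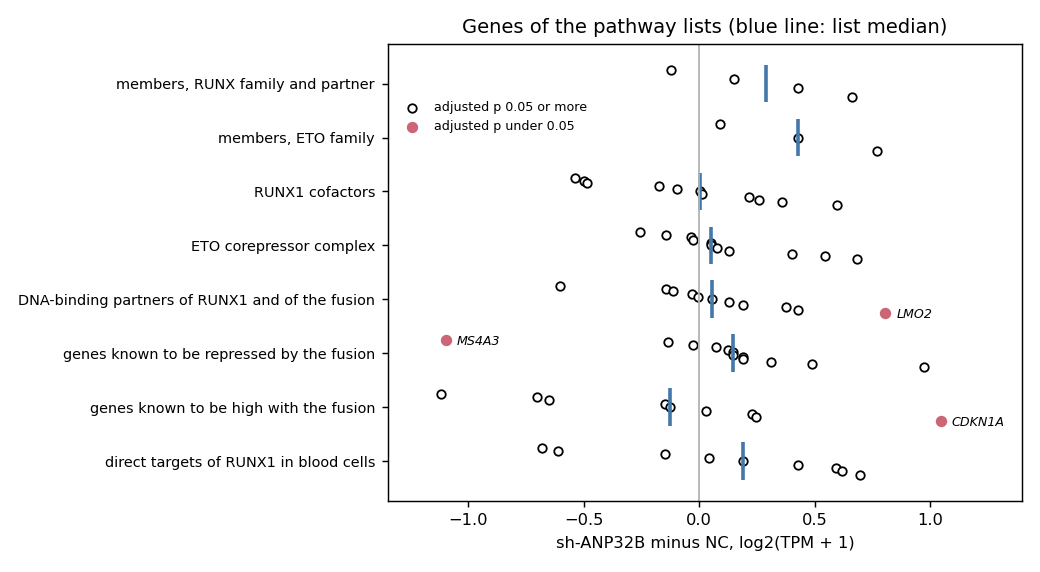
Log2(TPM + 1) difference of sh-ANP32B minus NC for each tested gene of the members and of the 6 lists, with 1 point per gene, filled where the limma adjusted p is under 0.05, and a blue line at the list median. LMO2 and CDKN1A lie at 0.81 and 1.05, and MS4A3 at -1.10, while all members are unfilled.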

How the data were processed

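RNA was extracted with Trizol and sequenced from 4 samples labelled Kasumi-1, 2 NC and 2 sh-ANP32B. The authors aligned the reads to hg38 with HISAT2 (version 2.0.5 in the submitters' processing notes) and deposited TPM values. The unit was read from the values, and the program, annotation and filter behind them are not given in the sources used here. GENCODE v44 and its symbols matched 16986 of 18567 gene IDs. A gene was tested if 2 or more samples reached 1 TPM, and log2(TPM + 1) values were compared by limma 3.58.1 with an abundance trend (R 4.3.3), two-sided, with Benjamini-Hochberg adjustment over all genes tested. Fold differences on this scale understate the change of low genes. DESeq2, the tool of the study, requires counts and was not applied. The fit was also run on simulated data, with errors independent between genes and no GC difference between replicates. The outcome is not reported here, and no result rests on it. GC correction was a loess fit within each sample on the GC content of the longest transcript. Members and lists were chosen with earlier results of these data known. Named genes are the members, ANP32B, list genes with an adjusted p under 0.05 or needed to describe their list, genes overlapping a member, and the 3 genes nearest in pattern to RUNX1T1 and to RUNX1. Alternatives covered scaling, pseudocount, filters, variance model, GC content, replicate block and leaving out each sample.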

Additional observations from a re-analysis of the deposited data

How the results depend on the processing

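RUNX1, CBFB and CBFA2T3 kept their direction and an adjusted p of 0.05 or more in all 15 alternative fits, and RUNX3 did so in all but 2 that left out a sample. CBFA2T2 turned to -0.0029 with median-of-ratios scaling and was otherwise positive. RUNX2 passed an adjusted p of 0.05 with GC correction (log2 difference 0.63) and the replicate block with GC correction (0.63). RUNX1T1 passed with GC correction (0.74), the replicate block (0.77) and both together (0.74). ANP32B, at -3.04, lost its call without the abundance trend (limma adjusted p 0.0929). Of the members, 0 were called as reported, and 2 with GC correction, 1 under the replicate block, 2 with both and 2 by the criterion of the study. All genes called, 559 as reported, were 0 without the abundance trend (3701 at an unadjusted p under 0.05), 2532 after GC correction, 1473 under the replicate block, 1666 with both and 3130 under that criterion. The fits with GC correction tested only the 15427 genes with a GC value, where 16817 were tested as reported. List genes called, 3 as reported, were 7 with at least 1 TPM in every sample, 0 without the trend, 12 after GC correction, 7 under the replicate block and 8 with both. Higher calls were 64.4% of all calls as reported, 44.4% with median-of-ratios scaling, 52.6% with upper-quartile scaling, 51.0% with quantile normalization and 45.8% with GC correction. The cause of these shifts was not tested.

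Leaving out each sample gave log2 differences of 0.64 to 0.69 for RUNX2, 0.34 to 0.52 for RUNX3, 0.66 to 0.88 for RUNX1T1 and 0.35 to 0.51 for CBFA2T3. The small differences of RUNX1 (0.08 to 0.22), CBFB (-0.18 to -0.06) and CBFA2T2 (0.04 to 0.14) moved by over 1.5 times. It gave 0 to 3 members called, 273 to 4079 genes called over all and 0 to 23 list genes called. The high counts came without sh-ANP32B replicate 1 or 2, where the spread rests on NC alone and the lone knockdown sample is assumed to vary like it. RUNX2, RUNX3 and RUNX1T1 were then called, with 24.3% and 20.7% of all genes. The shares of RUNX1 and RUNX1T1 in their families and the ratios of RUNX1T1 to RUNX1 and of CBFB to the RUNX sum kept their direction without any 1 sample. Equal replicate numbers are not stated to mark shared handling, and the deviations of same-numbered samples had a Pearson r of -0.0925, so the numbers were not taken to pair the samples. The replicate block, which uses these numbers, is given only as an alternative. The depth is unknown, and 2 samples per group limit every interval.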
